A study of Mus musculus with 12 samples.

Results

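The genes described here carry the names of 5 kinds of G protein-coupled receptors and of the orphan receptors next to them. They include adhesion receptors (symbols starting with Adgr) and receptors for lysophosphatidic acid (Lpar) and sphingosine 1-phosphate (S1pr). Nucleotide receptors (P2ry) and melanocortin receptors (Mc1r to Mc5r) complete the 5 kinds. The other genes are named Gpr plus a number, many of them orphans without an agreed ligand. A Gpr number alone does not show that the product is a G protein-coupled receptor. Gpr137, Gpr155 and Gpr107 are described below as lysosomal or Golgi proteins, and all members are called receptor genes here by name only. Members were chosen by gene symbol in Ensembl 96 among protein-coding genes, without Gpr17. Also left out were 4 genes with letters after the Gpr number (Gpr37l1, Gpr137b, Gpr137c and Gpr31b), so no family sum below holds them. The rule gave 120 of 55536 genes, namely 27 adhesion, 68 Gpr-numbered, 6 Lpar, 5 S1pr, 9 P2ry and 5 melanocortin receptor genes. The 78 of them with 10 or more reads in 4 or more libraries were tested (17 adhesion, 46 Gpr-numbered, 5 Lpar, 4 S1pr, 4 P2ry and 2 melanocortin), among 17919 such genes in all.

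Total RNA was sequenced from cultures of mouse oligodendrocyte precursor cells (OPCs), taken from pooled brains of pups aged 4 to 6 days and selected by GFP or by CD140a on magnetic beads. The mice were Sox10:Cre-RCE:LoxP(EGFP), in which Cre driven by Sox10 switches on GFP in the oligodendrocyte lineage. All cultures were grown with PDGFaa and bFGF, and the labels give Sox10GFP+ OPCs as cell type and EAE (experimental autoimmune encephalomyelitis) as mouse model for every library, including the untreated ones. The paper describes induction of EAE in older males, and none in the pups that gave these cultures. Ctr-OPCs received no treatment, Dexa-treated OPCs received 1 µM dexamethasone (a synthetic glucocorticoid) for 48 h, and IFN-γ-treated OPCs (labelled IFNg) received 100 ng/ml of interferon gamma for 48 h. Each group had 4 replicates from different litters, and since the number of a replicate marks libraries that deviate together, groups were compared within replicate numbers. The table of Dexa replicate 3 ended after 47855 of 141862 transcripts, and this library was therefore left out of the tests, with values given only for genes listed whole. The other 11 libraries held 19209063 to 52074652 reads in genes.

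G protein-coupled receptors span the membrane and pass the binding of a ligand on to heterotrimeric G proteins, arrestins and receptor kinases inside the cell. Adhesion receptors carry a long extracellular part that binds matrix proteins or proteins on neighbouring cells, and several of them act in glial development. OPCs divide in response to PDGF and later form myelin, and receptors such as Adgrg1 and Gpr37 are known to influence when they do so.

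Levels between genes were compared per length, as TPM, a level corrected for transcript length and library size. Adgrg1 (also known as GPR56, a receptor for collagen III and transglutaminase 2) was the most abundant receptor transcript in Ctr-OPCs at 86.0 ± 19.3 TPM (SD, n = 4). Adgrl3, a latrophilin that binds teneurins and FLRT proteins, followed at 58.9 ± 19.5 TPM, and these neighbours in the order overlapped within their spread. Adgrl1, Adgrb2 and Adgra3 lay close together at 21.5, 21.0 and 20.7 TPM. In all, 11 receptor genes had a mean of 10 or more TPM in Ctr-OPCs and 34 had 1 or more.

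**Figure D1:**
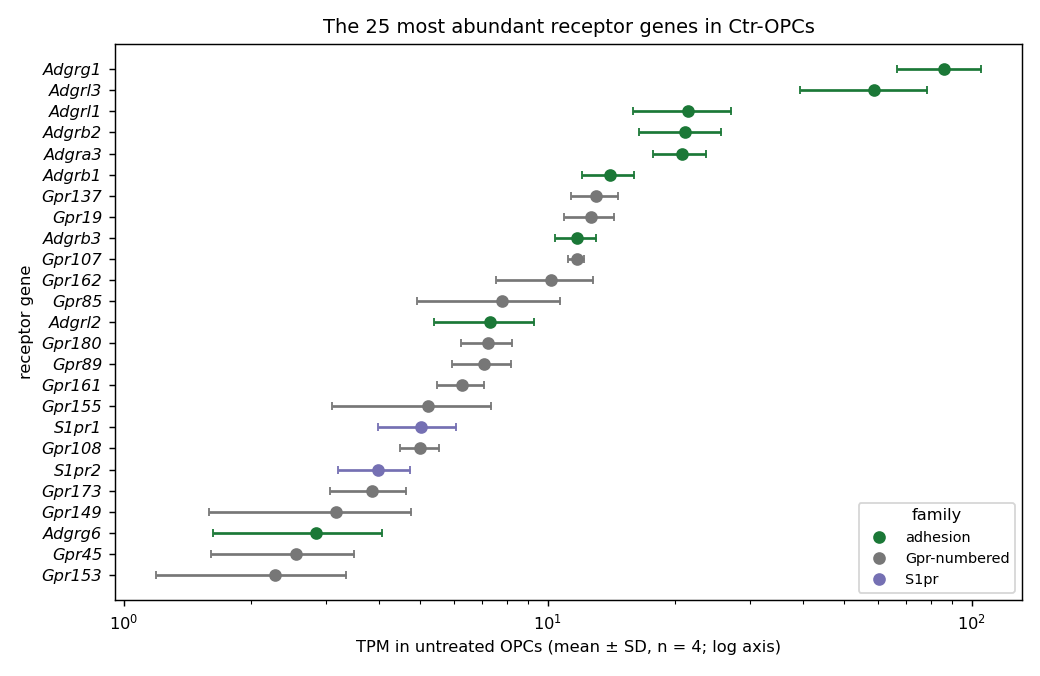
Level per transcript length (TPM, log axis) of the 25 receptor genes with the highest mean in the 4 Ctr-OPC libraries, with points for means and bars for the SD, coloured by family. Adhesion receptors take the first 6 places, with Adgrg1 at 86.0 TPM.

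The most abundant members of the other families, 1 each, were Gpr137 (13.0 ± 1.66 TPM), a lysosomal membrane protein, S1pr1 (5.03 ± 1.05), Mc5r (2.06 ± 1.20), the ADP receptor P2ry1 (1.83 ± 0.347) and Lpar6 (1.57 ± 0.594). Adhesion receptors together took 66.0% ± 1.55 of the summed receptor gene TPM in Ctr-OPCs and Gpr-numbered genes 29.1% ± 1.53. The latter share includes genes such as Gpr137 and Gpr107 (11.7 TPM), so it is not a share of established G protein-coupled receptors alone. The remaining families shared a small part, with 2.48% ± 0.261 for S1pr, 0.891% ± 0.214 for Lpar, 0.874% ± 0.107 for P2ry and 0.664% ± 0.353 for melanocortin receptors. By normalised counts, which are not corrected for length, adhesion receptors took 70.0%.

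Of the 120 genes, 42 did not pass the count filter, and none of these 42 had more than 16 reads in a full library. They included some receptors known from immune cells, such as Gpr65, Gpr132, Gpr174 and Gpr84 (1 to 2 reads at most), P2ry6 (3 reads at most) and Adgre1, which encodes the macrophage marker F4/80 (9 reads at most). Other receptors known from immune cells passed the filter. Among them were Adgre5 (1.65 ± 0.324 TPM in Ctr-OPCs), P2ry12 (0.201 ± 0.107), Gpr18 (0.188 ± 0.0517) and Gpr183 (0.0797 ± 0.0200). P2ry10 and Gpr33 had 0 reads in all 11 full libraries. A count of 0 allows up to 3 reads in a library, so these 2 genes were not detectable at this depth.

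The comparison of IFN-γ-treated with Ctr-OPCs asks which receptors the cytokine changes. Levels per gene are given below as normalised CPM (counts over the library size scaled by TMM, not corrected for length), and fold changes are on the log2 scale with their standard error (SE) from the paired edgeR quasi-likelihood test, with Benjamini-Hochberg adjustment over all 17919 genes and a call at an adjusted p under 0.05. Of the 78 receptor genes tested, 22 (28.2%) were called, against 31.3% of all genes tested. The called receptors were mostly lower after IFN-γ: 20 fell (25.6% of those tested, against 15.3% of all genes) and 2 rose (2.56%, against 16.0%). All 20 were lower in 4 of 4 replicate pairs and both risers were higher in 4 of 4. A paired test favours genes whose pairs agree, so this adds no support to the calls. Of the 2 risers, Adgrd1 had passed the count filter through the IFN-γ libraries alone. Some of the 20, such as Gpr26 and Lpar3, had passed it through Ctr and Dexa libraries alone. The places of such genes in these counts carry no support from the test. The median log2 change was -0.14 over the 78 receptor genes and -0.01 over all genes tested.

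When the replicate pairing was left out of the test, 9 of these 22 genes were still called: Mc5r, Mc4r, Gpr158, Gpr153, Gpr37, Lpar4, P2ry1, Adgra1 and Adgrd1, against 8.44% of all genes. The other 13 were called by edgeR only with the pairing. DESeq2 with the pairing called 21, against 29.2% of all genes, and 19 of them were among the 22. Replicates differed widely in level, and Ctr replicate 1 was the lowest Ctr library for 15 of the 22 genes. IFN-γ-treated and Ctr libraries did not overlap for 12 of the 78 genes (15.4%), against 14.4% of all genes. In whole cultures, fewer cells of a type and less RNA per cell cannot be told apart.

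**Figure D2:**
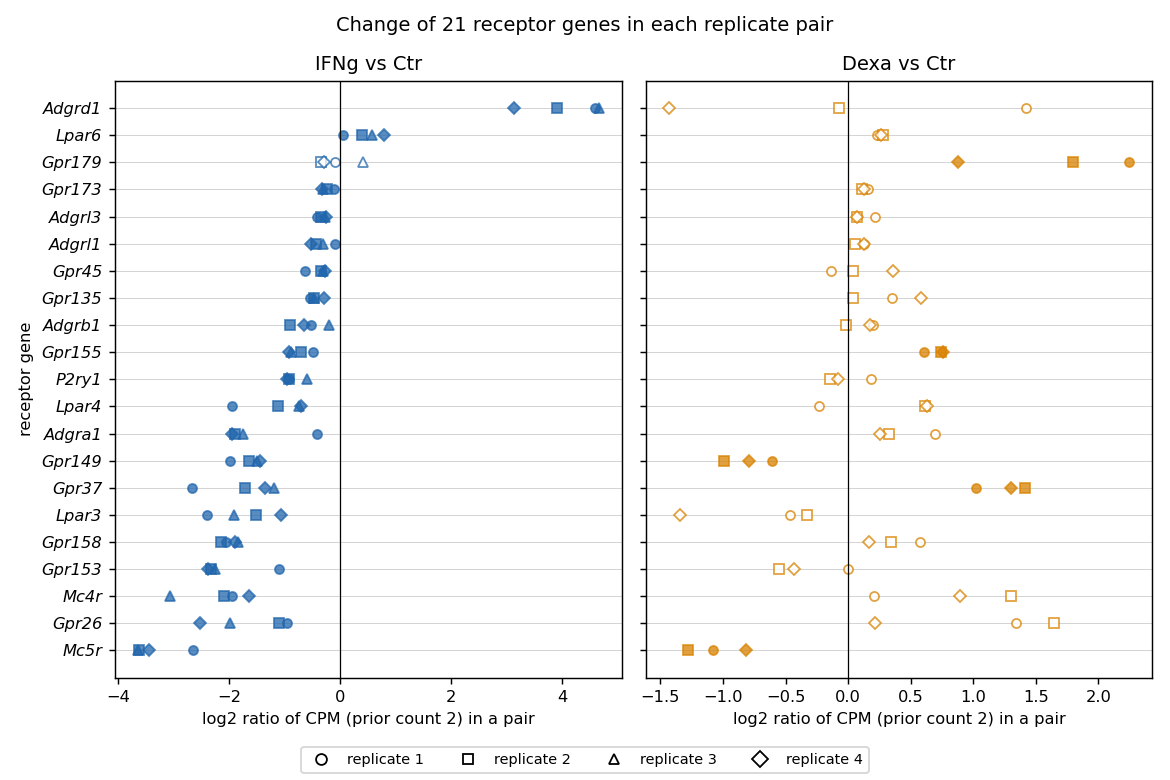
Log2 ratio of CPM (prior count of 2) of treated over Ctr-OPCs within each replicate pair, for 21 of the 23 receptor genes called in either comparison with Ctr, ordered by the IFN-γ change. Filled symbols mark genes called in that comparison and symbol shapes mark the replicate. The panels have different scales, and the right panel has 3 pairs because Dexa replicate 3 was incomplete.

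Melanocortin receptors are the Gs-coupled receptors of peptides cut from pro-opiomelanocortin, and both that passed the filter fell with IFN-γ. Mc5r, best known from exocrine glands, had 3.34, 9.60, 17.1 and 18.9 normalised CPM in Ctr-OPC replicates 1 to 4 and 0.483, 0.727, 1.32 and 1.69 after IFN-γ. Every IFN-γ-treated library lay below every Ctr library, although the Ctr libraries themselves were spread widely, with replicate 1 lowest. The change was -3.50 ± 0.16 on the log2 scale (adjusted p = 9.14e-08), the steepest fall among the 78 receptor genes. Mc4r, the receptor that restrains food intake in the hypothalamus, had 1.44, 1.37, 3.02 and 1.66 CPM in Ctr-OPCs and 0.332, 0.280, 0.313 and 0.499 after IFN-γ. These groups did not overlap either, and Mc4r fell by 2.35 on the log2 scale (SE 0.30, adjusted p = 0.000209). The summed level of the family, almost all of it Mc5r and Mc4r, was 14.2 ± 7.66 CPM in Ctr-OPCs (SD, n = 4) and 1.61 ± 0.533 after IFN-γ. Mc1r, Mc2r and Mc3r stayed at 9 reads or fewer in each full library.

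Among class C and related orphan receptors, Gpr158, which has been described as a glycine receptor, had 4.94, 8.84, 10.2 and 10.6 CPM in Ctr-OPC replicates 1 to 4 and 1.15, 1.96, 2.82 and 2.80 after IFN-γ. The groups were well apart, and the order of the 4 replicates was nearly kept within each. The log2 change was -2.0 ± 0.12 (adjusted p = 8.59e-07). Gpr179, a related receptor of retinal bipolar cells, did not pass the test with IFN-γ (-0.11, adjusted p = 0.765), with 3.94, 2.19, 1.03 and 2.45 CPM in Ctr-OPCs and 3.72, 1.71, 1.39 and 1.99 after IFN-γ.

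Gpr37, a receptor linked to prosaposin and to the timing of oligodendrocyte differentiation, had 6.44, 5.89, 3.64 and 4.27 CPM in Ctr-OPCs and 0.967, 1.76, 1.57 and 1.65 after IFN-γ. No IFN-γ-treated library reached the lowest Ctr library, and Gpr37 fell by 1.76 on the log2 scale (SE 0.21, adjusted p = 0.000125). Summed over 4 genes of mature oligodendrocytes (Mbp, Mog, Mag and Mobp), which also use Gpr37, levels ranged from 16.9 to 62.9 CPM in Ctr-OPCs and from 13.9 to 78.4 after IFN-γ, and their part in the Gpr37 values was not tested. Gpr155, a lysosomal cholesterol sensor, had 13.4, 28.7, 40.0 and 40.6 CPM in Ctr-OPCs and 9.49, 17.7, 21.7 and 21.4 after IFN-γ. The groups overlapped through the low Ctr replicate 1, yet each pair fell, by 0.76 on the log2 scale over the pairs (adjusted p = 9.46e-05, and 0.332 without the pairing).

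The start regions of Gpr158 and Gpr37, 2 of the genes that fell, are shown with that of Lpar6, 1 of the 2 genes that rose. Lpar6 was chosen because it differs from the other 2 in base composition. The sequences are the 250 bases before the annotated start from RefSeq (GRCm38.p6), read 5′ to 3′ on the strand of the gene, with CpG dinucleotides in capitals.
Gpr158, chr2:21367317-21367566, plus strand: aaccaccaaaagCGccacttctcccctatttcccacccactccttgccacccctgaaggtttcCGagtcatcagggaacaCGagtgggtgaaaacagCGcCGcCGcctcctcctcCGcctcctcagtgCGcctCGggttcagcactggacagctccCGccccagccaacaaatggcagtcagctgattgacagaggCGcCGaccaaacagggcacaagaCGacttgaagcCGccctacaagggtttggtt
Gpr37, chr6:25689981-25690230, minus strand: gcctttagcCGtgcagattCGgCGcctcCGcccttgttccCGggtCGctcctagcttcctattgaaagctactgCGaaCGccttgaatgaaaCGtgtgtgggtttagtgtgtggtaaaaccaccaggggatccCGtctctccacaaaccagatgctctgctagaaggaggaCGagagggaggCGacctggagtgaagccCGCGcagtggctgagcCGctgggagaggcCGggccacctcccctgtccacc
Lpar6, chr14:73237641-73237890, plus strand: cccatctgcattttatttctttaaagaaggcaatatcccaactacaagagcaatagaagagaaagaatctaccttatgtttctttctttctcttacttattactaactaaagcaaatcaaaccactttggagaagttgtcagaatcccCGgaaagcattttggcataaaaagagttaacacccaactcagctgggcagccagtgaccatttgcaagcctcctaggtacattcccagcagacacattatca
Gpr158 had 60.0% G or C and 14 CpG in this stretch, Gpr37 had 60.8% and 16, and Lpar6 had 39.2% and 1, against medians of 52.4% and 6 over all RefSeq windows. These figures describe 3 genes chosen for this contrast and were not tested against the response. The window of Lpar4, which fell with IFN-γ, is also poor in CpG, so genes that fell differ among themselves in this trait.

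RefSeq windows from 250 bases before to 50 after a start were found for 89 of the 120 genes and for 15 of the 23 called with either treatment, and the 3 motifs were searched on both strands. The gamma-activated site TTCNNNGAA was in 8.3% of all 32851 windows in 6.72% of the 119 windows of receptor genes and in 0 of 17 windows of those called with IFN-γ. The interferon-stimulated response element, searched as GAAA, any 2 bases and GAAA again, was in 3.44% of all windows, in 4.20% of the receptor windows and in 1 of these 17, that of Adgrl3. The matching letters are in capitals in the 30 bases at chr5:81020675-81020704 on the plus strand of GRCm38.p6.
Adgrl3: ggaagaagaaGAAAAAGAAAgagaaggggg
The match lies in a run of purines. The core of the glucocorticoid response element, searched as ACANNNTGT, was in 6.85% of all windows, in 10.1% of the receptor windows and in 0 of 3 windows of those called with Dexa. With so few windows of called genes, these counts describe the searched letters in these windows only.

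Among the other Gpr-numbered receptors, Gpr153 had 4.94, 12.2, 18.1 and 16.8 CPM in Ctr-OPCs and 2.27, 2.38, 3.76 and 3.18 after IFN-γ, without overlap. It is an orphan receptor of unknown ligand, and it fell by 2.07 on the log2 scale (SE 0.18, adjusted p = 1.45e-05). Gpr149, also an orphan, had 3.97, 14.9, 23.6 and 21.6 CPM in Ctr-OPCs and 0.967, 4.78, 8.36 and 7.94 after IFN-γ. Replicate 1 was far below the rest in both groups, and the paired change was -1.59 ± 0.11 (adjusted p = 3.21e-06, and 0.246 without the pairing).

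Further Gpr-numbered genes fell at low levels. Gpr26, a constitutively active orphan, had 55 reads over the 4 Ctr libraries and 6 over the 4 IFN-γ libraries, a ratio of 6.68 with a 95% counting interval of 2.88 to 19.0. The interval covers counting error only, and Gpr26 passed the filter through Ctr and Dexa libraries alone. Its place among the genes that fell therefore carries no support from the test. In the paired test the adjusted p-value was 0.0043, and 0.0943 without the pairing. Gpr135, an orphan, fell by 0.46 from 1.83 ± 0.185 to 1.33 ± 0.149 CPM, and its call (adjusted p = 0.0459) was lost when any 1 of 10 libraries was left out.

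Gpr45 and Gpr173, orphans expressed mainly in brain, fell by 0.39 and 0.25 on the log2 scale (adjusted p = 0.021 and 0.0289). Both changes were small beside the spread between replicates, and both calls were lost without Ctr replicate 2 among other libraries. Of the Gpr45 reads in Ctr-OPCs, 47.4% were on a transcript annotated as non-coding, and Gpr45 was the 1 called receptor whose mean TPM moved the other way. Measured in TPM, the median of all genes tested was shifted by 0.165 on the log2 scale in this comparison, and the other 21 called receptors kept their direction.

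**Figure D3:**
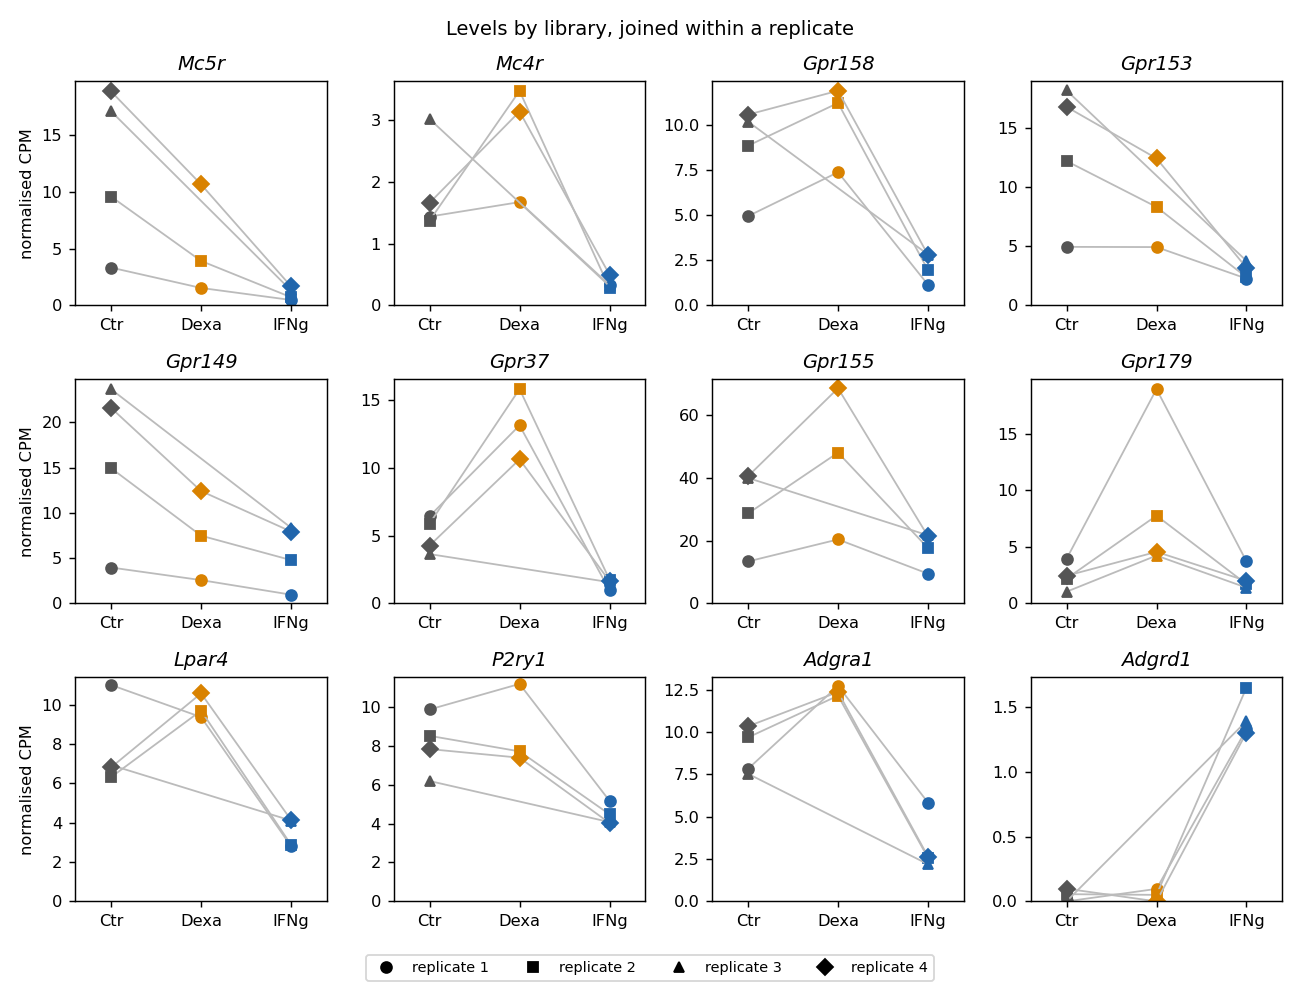
Normalised CPM of 12 receptor genes in each library, with symbols for the replicate and grey lines joining libraries of 1 replicate, axes starting at 0. Mc5r and Gpr149 step down from Ctr to Dexa to IFN-γ within replicates 1, 2 and 4, Gpr37 and Gpr155 peak with Dexa, and Adgrd1 is near 0 outside the IFN-γ libraries.

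Lysophosphatidic acid (LPA) receptors split by member. Lpar4, which raises cAMP, had 11, 6.31, 6.93 and 6.81 CPM in Ctr-OPC replicates 1 to 4 and 2.81, 2.88, 4.11 and 4.14 after IFN-γ. Ctr replicate 1 stood well above the other Ctr libraries, but all 4 lay above the IFN-γ-treated group. Lpar4 fell by 1.15 on the log2 scale (SE 0.20, adjusted p = 0.00134). Lpar3, a Gq- and Gi-coupled receptor at low level, passed the filter through Ctr and Dexa libraries alone. It fell from 0.493 ± 0.198 to 0.130 ± 0.110 CPM (-1.97, adjusted p = 0.00782, and 0.0846 without the pairing). Its place among the genes that fell therefore carries no support from the test.

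Lpar6, the most abundant of the family, had 20.6, 14.8, 8.85 and 9.16 CPM in Ctr-OPCs and 21.4, 19.5, 13.3 and 15.8 after IFN-γ. It rose in each pair, least in replicate 1, with overlapping groups and a log2 change of 0.45 ± 0.11 (adjusted p = 0.012). The call was lost without Ctr replicate 2, 3 or 4 or without IFN-γ replicate 3. On the opposite strand 209 exon bases of Lpar6 overlap Rb1, and Rb1 went from 41.0 to 47.1 CPM. Lpar2 (1.10 ± 0.223 and 1.74 ± 0.795 CPM) was higher in 4 of 4 pairs without passing the test (0.62, adjusted p = 0.0559), and Lpar1 did not pass either (0.04, adjusted p = 0.933).

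Genes listed for the making or clearing of LPA changed as well. Of 7 such genes tested, 4 (57.1%) were called, against 31.3% of all genes, with a median log2 change of 0.24. This list and the partner lists below were chosen with earlier results of these data known, so their shares only describe them. Liph, a phospholipase that releases LPA, went from 2.19 ± 0.948 to 6.58 ± 2.55 CPM (log2 change of 1.60, adjusted p = 4.6e-05). Pla1a went from 0.0945 ± 0.132 to 5.93 ± 3.50 CPM (5.68, adjusted p = 1.76e-05). It is a related phospholipase whose main product is not LPA, so its rise does not speak to LPA. Enpp2, the gene of autotaxin, rose by 0.49 on the log2 scale within pairs (adjusted p = 0.000735, and 0.703 without the pairing). Plpp3, a phosphatase that degrades LPA, fell by 0.77.

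None of the 4 sphingosine 1-phosphate (S1P) receptors tested was called with IFN-γ by edgeR, with 1 at an unadjusted p under 0.05, while DESeq2 with the pairing called 1. That gene was S1pr1, the receptor that guides lymphocyte exit, with 30.3, 24.9, 17.3 and 20.9 CPM in Ctr-OPCs and 21.1, 17.2, 14.3 and 21.0 after IFN-γ, lower in 3 of 4 pairs (-0.33, adjusted p = 0.0626 by edgeR). S1pr2 had 36.2 ± 3.85 and 32.7 ± 4.98 CPM (-0.15, adjusted p = 0.13). S1pr3 and S1pr5, the latter known from mature oligodendrocytes, were low, with Ctr means of 1.71 and 0.371 CPM and log2 changes of 0.17 and -0.55 that did not pass. Among 8 genes of S1P metabolism and transport tested, 1 (12.5%) was called, against 31.3% of all genes: the exporter Spns2 fell by 0.98 on the log2 scale (adjusted p = 6.64e-06, and 0.284 without the pairing). The median of the 8 was -0.13.

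Of the nucleotide receptors, P2ry1, the Gq-coupled receptor for ADP, had 9.86, 8.51, 6.18 and 7.82 CPM in Ctr-OPCs and 5.17, 4.48, 4.07 and 4.03 after IFN-γ. The highest IFN-γ-treated library lay below the lowest Ctr library, and P2ry1 fell by 0.86 on the log2 scale (SE 0.11, adjusted p = 0.000174). P2ry2, which answers to ATP and UTP, was higher in 4 of 4 pairs without passing (0.36, adjusted p = 0.107). The microglial ADP receptor P2ry12 and the UDP-glucose receptor P2ry14 stayed low, at 0.520 ± 0.169 and 1.39 ± 0.509 CPM in Ctr-OPCs, with log2 changes of 0.36 and -0.01 that did not pass.

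Of 6 genes tested that handle extracellular nucleotides, 2 (33.3%) were called, close to the 31.3% of all genes, and both fell, with a median of -0.15 over the 6. They were the ectonucleotidases Entpd1 (CD39), which removes phosphates from ATP and ADP, and Nt5e (CD73), which makes adenosine from AMP, at log2 changes of -0.68 and -0.54 (adjusted p = 0.0101 and 0.0119), and Nt5e was not called without the pairing (adjusted p = 0.241). For melanocortins, 2 of 5 genes tested (40.0%, against 31.3% of all genes) were called, with a median of -0.14. Pcsk2, a protease that cuts pro-opiomelanocortin, went from 28.7 ± 16.5 to 6.62 ± 3.81 CPM (-2.11 on the log2 scale, adjusted p = 1.08e-08, and 0.0886 without the pairing), and Atrn (attractin) fell by 0.28 within pairs (0.403 without the pairing).

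In the adhesion family 5 of 17 receptor genes were called (29.4%, near the 31.3% of all genes), 4 lower and 1 higher, with a median of -0.03. The riser was Adgrd1 (GPR133), which raises cAMP, with 0, 0.0557, 0 and 0.0978 CPM in Ctr-OPC replicates 1 to 4 and 1.33, 1.65, 1.39 and 1.30 after IFN-γ. It was near 0 in the Ctr and Dexa libraries and narrow in range after IFN-γ. In reads this was 6 over the 4 Ctr libraries against 177 over the 4 IFN-γ libraries, a ratio of 40.5 with a 95% counting interval of 18.2 to 112. Adgrd1 reached 10 reads in the 4 IFN-γ libraries only, so it entered the test through the group in which it is high, and its place among the 2 genes that rose carries no support from the test. Of the 177 reads, 96.6% were assigned to the protein-coding transcript Adgrd1-201, whose gene spans chr5:129096750-129204599 on the plus strand of GRCm38.

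Adgra1 (GPR123), an orphan of the nervous system, had 7.82, 9.68, 7.53 and 10.3 CPM in Ctr-OPCs and 5.83, 2.57, 2.19 and 2.65 after IFN-γ. IFN-γ replicate 1 was far above the other IFN-γ-treated libraries, though still below every Ctr library. The log2 change was -1.46 ± 0.23 (adjusted p = 0.000803). Adgrb1 (BAI1), a receptor that recognises phosphatidylserine on dying cells, had 67.7, 99.6, 81.6 and 95 CPM in Ctr-OPCs and 47.0, 53.0, 70.8 and 60.9 after IFN-γ. The highest IFN-γ-treated library just passed the lowest Ctr library, and Adgrb1 fell by 0.57 within pairs (adjusted p = 0.000933, and 0.0567 without the pairing). Only 16.4% of its reads in Ctr-OPCs were on transcripts annotated as protein-coding, and 52.4% were on 1 transcript marked for nonsense-mediated decay.

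The latrophilins Adgrl1 and Adgrl3, abundant in OPCs, fell modestly. Adgrl3 had 198, 288, 404 and 401 CPM in Ctr-OPCs and 148, 226, 334 and 338 after IFN-γ, a log2 change of -0.32 ± 0.057 (adjusted p = 0.00173, and 0.651 without the pairing). The spread over replicates was wider than this change, with replicate 1 lowest in both groups. Adgrl1 changed by -0.34 ± 0.072 (adjusted p = 0.00538, and 0.301 without the pairing) from a Ctr mean of 207 ± 41.0 CPM. Adgrg1, the most abundant receptor, had 277 ± 81.6 and 277 ± 38.7 CPM and did not pass the test (0.04, adjusted p = 0.812). Summed adhesion receptor levels were 1338 ± 27.9 CPM in Ctr-OPCs and 1210 ± 73.8 after IFN-γ (SD, n = 4), but 249.6 ± 15.6 and 256 ± 15.6 in TPM, so the direction of this sum depended on the scale.

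**Figure D4:**
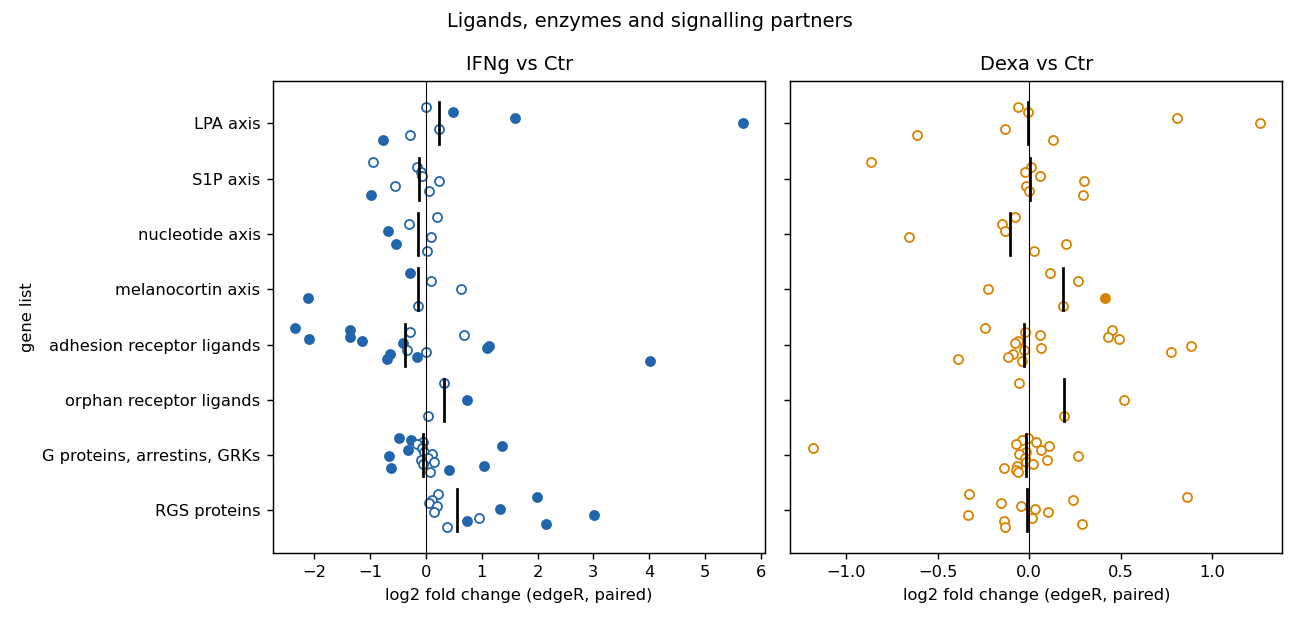
Log2 fold change (paired edgeR test) of genes of ligands, enzymes and signalling partners, with 1 point per gene, filled where the gene was called, and a bar at the median of each list (panels on different scales). The lists were chosen with earlier results of these data known. With IFN-γ (left) all 12 RGS genes tested lie above 0, and 9 of 16 adhesion receptor ligands were called lower. With Dexa (right) 1 point is filled, Pcsk2.

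Of 16 genes of adhesion receptor ligands tested, 12 (75%) were called, against 31.3% of all genes, 9 lower and 3 higher. Without the pairing 4 of the 16 were called, against 8.44% of all genes, and the median log2 change was -0.37. The list was chosen with earlier results of these data known, so these shares only describe it. Flrt2, a ligand of latrophilins, went from 47.6 ± 16.3 to 21.3 ± 6.35 CPM (-1.15 on the log2 scale, adjusted p = 2.35e-07), and C1ql1, a ligand of Adgrb3, from 43.5 ± 21.4 to 9.47 ± 6.58 CPM (-2.34, adjusted p = 1.42e-06, and 0.0929 without the pairing). Tgm2, the transglutaminase that binds Adgrg1, rose from 1.18 ± 0.259 to 20.7 ± 13.5 CPM (4.02, adjusted p = 3.34e-06). Col3a1, the collagen III gene, was named after its values were seen. It went the other way, from 3.04 ± 3.37 to 1.14 ± 1.17 CPM (-1.36, adjusted p = 0.00202, and 0.622 without the pairing). Prnp, the prion protein and a ligand of Adgrg6, rose from 120.2 ± 8.78 to 257 ± 17.4 CPM (1.10, adjusted p = 2.2e-07).

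Among 18 G protein, arrestin and receptor kinase genes tested, 8 (44.4%) were called, against 31.3% of all genes, 3 higher and 5 lower, with a median of -0.04. Gna13, whose product activates RhoA, went from 155 ± 28.4 to 396 ± 44.7 CPM (1.36 on the log2 scale, adjusted p = 5.45e-08). The receptor kinase gene Grk3 rose by 1.05, the neural G protein gene Gnao1 fell by 0.67 and the arrestin gene Arrb1 fell by 0.49, all within pairs. Without the pairing their adjusted p-values from edgeR were 0.346, 0.191 and 0.471. Gna13 was the 1 of the 18 called without the pairing, against 8.44% of all genes.

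RGS proteins speed up the switching-off of Gi and Gq proteins. Of 12 RGS genes tested, 5 (41.7%) were called, against 31.3% of all genes, all 5 higher and all 5 also called without the pairing, and the other 7 did not pass. The median over the 12 was 0.56. The list was chosen with earlier results of these data known, so its share and direction only describe it. Rgs4 went from 0.952 ± 0.152 to 8.04 ± 2.79 CPM (3.02 on the log2 scale), Rgs20 from 6.72 ± 1.17 to 16.9 ± 1.40 CPM (1.33), Rgs7 from 36.7 ± 5.21 to 61.5 ± 9.44 CPM (0.74) and Rgs8 from 0.410 ± 0.176 to 1.83 ± 0.393 CPM (2.16). Of 3 genes that make or clear ligands of formerly orphan receptors, 1 (33.3%, against 31.3% of all genes) was called: Hsd3b7, an enzyme that inactivates the oxysterol ligand of Gpr183, rose by 0.74 (adjusted p = 0.00298), and the median of the 3 was 0.32.

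The comparison of Dexa-treated with Ctr-OPCs asks the same of a glucocorticoid, with 3 full Dexa libraries. Of the 78 receptor genes, 5 (6.41%) were called, against 1.57% of all genes tested. Gpr179, Gpr37 and Gpr155 rose (3.85%, against 1.31%), and Mc5r and Gpr149 fell (2.56%, against 0.262%). The count depended on the fit and on single libraries: without the pairing edgeR called 0 receptor genes (0.123% of all genes), with 2 at an unadjusted p under 0.05, and without Dexa replicate 2 it called 0, with 13. A fit of the Dexa and Ctr libraries alone, with the pairing, called 14 (8 higher and 6 lower). DESeq2 called 6 with the pairing (2.57% of all genes) and 2 without it. Dexa and Ctr libraries did not overlap for 3 of the 78 genes (3.85%), against 4.29% of all genes. The count fell to 3 without Dexa replicate 1 or Ctr replicate 4 and to 2 without Ctr replicate 2.

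Gpr37 had 13.1, 15.8 and 10.6 CPM in Dexa replicates 1, 2 and 4, above all 4 Ctr libraries given earlier, of which the highest had 6.44. It rose by 1.31 ± 0.20 on the log2 scale (adjusted p = 0.00869, and 0.11 without the pairing). The 4 oligodendrocyte genes named beside Gpr37 summed to 23.2 to 101 CPM in these libraries, and their part was not tested. Gpr179 had 18.9, 7.76 and 4.55 CPM in Dexa replicates 1, 2 and 4 and 4.23 in the incomplete replicate 3. Replicate 1 was far higher than the rest, and all 4 values lay above every Ctr library. The paired log2 change was 1.81 ± 0.23 (adjusted p = 0.00391, and 0.515 without the pairing).

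Gpr155 had 20.4, 48.1 and 68.6 CPM in Dexa replicates 1, 2 and 4, each above its own Ctr partner although the groups overlapped. Its log2 change was 0.69 ± 0.094 (adjusted p = 0.00532). Mc5r had 1.55, 3.93 and 10.7 CPM and Gpr149 had 2.58, 7.48 and 12.4. Both were lower than Ctr in 3 of 3 pairs with overlapping groups, at log2 changes of -1.08 ± 0.15 and -0.81 ± 0.13 (adjusted p = 0.00688 and 0.0111). Without the pairing the adjusted p was 1 for Gpr155, Mc5r and Gpr149.

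Other receptors leaned 1 way in 3 of 3 pairs without passing the test. Mc4r had 1.67, 3.48 and 3.14 CPM with Dexa, each above its Ctr partner (0.78, adjusted p = 0.281). Adgra1 had 12.7, 12.1 and 12.4 CPM, all above the highest Ctr library (0.37, adjusted p = 0.639). P2ry2 was lower (-0.72, adjusted p = 0.138) and S1pr2 higher (0.32, adjusted p = 0.0995), and DESeq2 with the pairing called S1pr2 (adjusted p = 0.0492). Among adhesion, Lpar, S1pr and P2ry genes edgeR called 0 with Dexa, with 3, 1, 1 and 2 at an unadjusted p under 0.05, and DESeq2 with the pairing called 1. Of the partner genes, Pcsk2 was the 1 called, at 0.41 on the log2 scale (adjusted p = 0.0273, and 1 without the pairing), 1 of 5 melanocortin genes tested (20.0%, against 1.57% of all genes).

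Set side by side, 4 receptor genes were called with both treatments, and both comparisons share the Ctr libraries. Gpr37 and Gpr155 went in opposite directions, with log2 changes of 1.31 and 0.69 with Dexa and -1.76 and -0.76 with IFN-γ. Mc5r and Gpr149 were lower with both, at -1.08 and -0.81 with Dexa and -3.50 and -1.59 with IFN-γ.

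The comparison of IFN-γ-treated with Dexa-treated OPCs contrasts these groups directly, with the Ctr libraries in the same fit. Of the 78 receptor genes, 29 (37.2%) were called, against 33.7% of all genes, 24 of them lower with IFN-γ (30.8%, against 16.6%) and 5 higher (6.41%, against 17.2%). Without the pairing 14 were called, against 8.77% of all genes, and DESeq2 with the pairing called 28, against 31.6%. The libraries did not overlap for 17 of the 78 genes (21.8%), against 20.0% of all genes. Mc4r and Gpr37 had log2 changes of -3.13 ± 0.32 and -3.07 ± 0.22 (adjusted p = 4.42e-05 and 3.8e-06), and Gpr26 had -3.82 ± 0.55 (adjusted p = 0.000479). All 3 were still called without the pairing. Gpr26 had 6 reads over the 4 IFN-γ libraries and passed the filter through Ctr and Dexa libraries alone. Its place among the 24 therefore carries no support from the test. Gpr158 fell by 2.38, Mc5r by 2.42, Gpr179 by 1.92, Adgra1 by 1.83, Gpr153 by 1.68 and Lpar4 by 1.53 on the log2 scale, and of these Mc5r was not called by edgeR without the pairing (adjusted p = 0.0788).

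The 5 receptors higher with IFN-γ than with Dexa were Adgrd1 (4.67), Lpar2 (1.09), P2ry2 (1.08), Adgra3 (0.31) and Adgrl2 (0.21), and without the pairing Adgrd1, which passed the filter through these IFN-γ libraries alone, was the 1 of them still called. Lpar2 and P2ry2 had passed in neither comparison with Ctr. P2ry2 had 0.846, 2.29, 4.11 and 5.18 CPM in IFN-γ replicates 1 to 4 and 0.547, 1.08 and 2.15 in Dexa replicates 1, 2 and 4, higher with IFN-γ in 3 of 3 pairs with overlapping groups (adjusted p = 0.00189, and 0.298 without the pairing). Adgra3 and Adgrl2, an adhesion receptor of the planar polarity pathway and a latrophilin, were named after their values were seen, and each call was lost without Dexa replicate 1 or 2. Gpr27 and Gpr62 were called with neither treatment against Ctr, and were named after their values were seen. Gpr62, a receptor of mature oligodendrocytes, had 0.805, 0.982 and 1.20 CPM in Dexa replicates 1, 2 and 4 and 0.514, 0.588, 0.348 and 0.460 in the IFN-γ libraries (-0.98, adjusted p = 0.0177). Gpr27, an orphan, was lower with IFN-γ by 0.65 on the log2 scale, and both calls were lost without Dexa replicate 2. S1pr2 was the 1 S1P receptor called, lower with IFN-γ by 0.47 on the log2 scale (adjusted p = 0.00126, and 0.127 without the pairing).

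The cultures expressed the 6 OPC markers searched (Pdgfra, Cspg4, Sox10, Olig1, Olig2 and Ptprz1), which summed to 4941 to 8399 CPM in Ctr-OPCs, 5675 to 8846 with Dexa and 3716 to 7468 with IFN-γ. Cspg4, Sox10 and Pdgfra were called lower with IFN-γ within pairs (-0.60, -0.55 and -0.61 on the log2 scale) and none of them without the pairing. Of 8 microglial markers 2 passed the filter, with sums of 8.02 to 12.3, 9.06 to 12.4 and 10.2 to 13.1 CPM in Ctr, Dexa and IFN-γ libraries. Of 7 neuronal markers 5 passed, with sums of 42.0 to 49.4, 52.4 to 59.5 and 82.4 to 156 CPM, where Tubb3 and Syt1 were called higher with IFN-γ and Snap25 and Gad1 lower. Of the 8 astrocyte markers, 6 were called with IFN-γ within pairs, 3 in each direction, among them Gfap (3.99 on the log2 scale), also called without the pairing, and S100b (-1.53). The astrocyte markers summed to 571 to 1526, 1176 to 1975 and 1063 to 1590.3 CPM. Endothelial and mural markers summed to 2.88 to 4.31, 4.19 to 7.22 and 2.39 to 3.87 CPM, and fibroblast markers to 0.190 to 6.52, 0.419 to 4.51 and 0.755 to 8.95, with Lum called higher and Dcn lower with IFN-γ (3.93 and -1.35). With Dexa, Cspg4, Aldoc, Snap25 and Flt1 were called higher within pairs (0.65, 0.98, 0.67 and 1.01) and none of the 4 without the pairing. The part of these shifts in the receptor values was not tested.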

How the data were processed

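Total RNA of 12 mouse OPC libraries (4 each of Ctr, Dexa and IFNg) was sequenced. The authors trimmed the reads, aligned them with STAR and quantified transcripts with Salmon 0.8.2 (GRCm38). The methods name an older Ensembl annotation for STAR, while all 141862 transcripts of the deposited tables are in GENCODE M21 (Ensembl 96), which was used here for gene names. The deposited values are estimated counts and TPM per transcript, and whether Salmon used the strand is not given in the sources used here. Tables of the authors' own DESeq2 comparisons (fold changes and p-values) were not used.

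Here the estimated counts were summed per gene, rounded and tested with edgeR 4.0.16 (R 4.3.3) by its quasi-likelihood test, with TMM factors and the replicate as a block, in 1 fit of the 11 complete libraries. TPM were summed per gene and used for levels per length. Genes with 10 or more reads in 4 or more libraries entered, p-values were adjusted by Benjamini-Hochberg, and the threshold was 0.05. The SE is the log2 change divided by the square root of F. Counting intervals (95%) cover counting error only. The count test was first run on counts simulated from a paired fit of these data, which cannot show how calls depend on the pairing.

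Replicate numbers pair the libraries, since deviations from the group means correlated at 0.414 to 0.745 in the 10 same-number pairs (-0.646 to 0.526 in the 30 others, the highest between replicates 3 and 4, which share a title prefix whose meaning is not given in the sources used here). The labels do not tie the groups of a number to 1 litter. Depth was 19209063 to 52074652 reads in genes, and the incomplete Dexa replicate 3 was scaled over 3477 genes and only described.

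Members and lists were chosen with earlier results of these data known. Named genes were the receptor genes called with Dexa or IFN-γ, the most abundant of each family, every Lpar, S1pr, P2ry and melanocortin receptor gene that passed the filter, and up to 4 called partner genes per list by adjusted p. Further names in the levels, the adhesion receptor ligands, the closing values and the comparison of both treatments were chosen after their values were seen. Alternatives were no replicate block, DESeq2 1.42.0, its size factors, no low-count filter, fits of 2 groups, a fit of 12 libraries and leaving out each library. Results on a few genes are not reported here, though counts of genes include them.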

Additional observations from a re-analysis of the deposited data

Results flagged for a closer look

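In the 76 groups of 4 libraries checked (the named receptor genes), 2 had a library whose gap to its nearest neighbour exceeded Dixon's critical value as a share of the group's range, and chance gives this for about 1 in 20 groups. Adgra1 had 5.83 normalised CPM in IFN-γ replicate 1, above the other IFN-γ-treated libraries, and Lpar4 had 11 in Ctr replicate 1, above the other Ctr libraries. Both genes remained called with IFN-γ when these libraries were left out.

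Dexa replicate 3, which the tests over all genes did not use, lists some of the named receptor genes whole. It lay above every Ctr library for some of these, among them Adgrb1 with 131 CPM, Gpr179 with 4.23 and, narrowly, S1pr3 with 2.18. For others, such as Gpr45 and Lpar6, it did not. The scale of this library rests on 3477 genes, and the difference of Adgrb1 between Dexa and Ctr was not called in the other libraries.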

How the results depend on the processing

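With no replicate block, edgeR called 9 receptor genes with IFN-γ against Ctr (1 higher, 8 lower, in place of 2 and 20), 0 with Dexa against Ctr (0 and 0, in place of 3 and 2) and 14 with IFN-γ against Dexa (1 and 13, in place of 5 and 24), and DESeq2 with no block called 13 (1 and 12), 2 (0 lower) and 16 (1 and 15). Leaving out each library in turn gave 16 to 24 calls (1 to 3 higher, 15 to 21 lower), 0 to 5 (0 to 3, 0 to 2) and 23 to 31 (3 to 6, 20 to 25). The fit of 12 libraries, which holds 20 of the receptor genes, gave 5 (1 and 4), 1 (1 and 0) and 5 (0 and 5). With only Dexa and Ctr libraries in the fit, 14 were called (8 and 6). With no low-count filter 4 rose with IFN-γ, adding Lpar2 and Gpr146. DESeq2 with the block and its size factors in edgeR kept all counts within 1.5 times. As shares of TPM in place of normalised counts, adhesion receptors took 66.0% (70.0%), Gpr-numbered 29.1% (24.1%), S1pr 2.48% (3.24%) and P2ry 0.874% (0.654%).

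Of the named genes, 4 that were not called with IFN-γ changed sign when single libraries were left out: Adgrg1 (-0.079 to 0.14 on the log2 scale, and -0.0020 in DESeq2 with no block), Gpr179 (-0.26 to 0.061), Lpar1 (-0.17 to 0.17) and P2ry14 (-0.29 to 0.14). No called gene changed sign in these fits, while Gpr45 did in mean TPM. The cause of these shifts was not tested. Depth limits genes under 1 CPM, which 25 of the 78 were in Ctr-OPCs.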

Other observations

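Several members that were abundant in Ctr-OPCs passed in none of the 3 comparisons. Gpr19, an orphan receptor, had 26.2 ± 3.74 normalised CPM in Ctr-OPCs and 27.2 ± 2.45 with IFN-γ (SD, n = 4). Gpr107, a protein of the Golgi, had 70.8 ± 2.88 and 72.9 ± 3.38, and Gpr161, a receptor of the primary cilium that restrains hedgehog signalling, had 59.0 ± 9.08 and 59.6 ± 8.61. Gpr162 and Gpr85, orphans of the brain, had 42.9 ± 11.2 and 27.6 ± 9.56 in Ctr-OPCs and 39.3 ± 7.70 and 25.8 ± 8.75 with IFN-γ. A difference that missed the threshold is not shown to be absent. These genes were chosen for their level after values were seen.

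Of the 46 Gpr-numbered genes tested, 35 had a negative log2 change with IFN-γ and 11 a positive one, against 9289 and 8630 of all genes, and with Dexa 16 and 30, against 9043 and 8876. The 17 adhesion receptor genes divided into 9 and 8 with IFN-γ and 5 and 12 with Dexa. Some members share exon bases with an annotated gene on the opposite strand that had 0.41 CPM or less: P2ry1 with Gm37035 (992 bases), Adgrl3 with Gm16054 (1126) and Gpr158 with Gm13327 (601). Others share them with opposite-strand genes at higher levels in Ctr-OPCs. Among these were Gpr137 with Bad (517 bases, 21.5 CPM), Adgre5 with Ddx39 (230, 58.3 CPM) and Gpr62 with Pcbp4 (51, 154 CPM). How reads were split between these genes was not tested.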
